A study of Mus musculus with 4 samples.

Results

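Transcript levels of 9 genes of cholesterol synthesis (Hmgcs1, Mvd, Idi1, Fdps, Fdft1, Sqle, Lss, Dhcr7 and the regulator Srebf2) were compared between mouse small intestine and colon. The genes were chosen by symbol and not by their values. Of the 9 genes, 8 had exon blocks in the deposited mouse mm9 exon table on the chromosomes that were matched, among 20974 genes in all. An exon block is a stretch of overlapping RefSeq exons merged into 1 piece, and every level below is the number of reads on the blocks of a gene per 1000 exonic bases and per 1000000 uniquely placed reads (RPKM). Hmgcs1 could not be counted. All 8 counted genes had the higher RPKM in colon in both library protocols, as did 50.4% of all genes tested in both. The ratios were 1.31-fold to 3.25-fold after cDNA fragmentation and 1.27-fold to 3.19-fold after RNA fragmentation. The median of all genes was 1.32-fold in each, and Idi1 after cDNA and Lss and Srebf2 after RNA fragmentation lay below it. Sqle after cDNA and Idi1 after RNA fragmentation lay just above it. Each of these differences from the median was within counting error. Under median-of-ratios scaling, which sets the middle of all genes level, Idi1 after cDNA and Lss after RNA fragmentation turned to just below 1.

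Cells make cholesterol from acetyl-CoA. The mevalonate steps (Hmgcs1, Mvd, Idi1 and Fdps) build the isoprenoid chain, Fdft1 joins such chains to squalene, Sqle and Lss turn squalene into the first sterol, and Dhcr7 carries out a last step to cholesterol. The genes are controlled together by SREBP2, the product of Srebf2, a membrane protein that is cleaved and enters the nucleus when the sterol content of the cell falls. The small intestine is in addition the site at which dietary and biliary cholesterol is taken up through Npc1l1.

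The libraries came from whole tissue of small intestine and colon, in the study's methods jejunum and distal colon, of untreated C57BL/6 mice aged 9 to 10 weeks, with no genetic change named. The cDNA fragmented pair was made from polyadenylated RNA by full-length cDNA synthesis and amplification before fragmentation, and the RNA fragmented pair by fragmentation of the RNA itself with a whole transcriptome kit. The labels give ribosomal RNA depletion for the RNA fragmented pair, whereas the study's methods describe polyadenylated RNA for that protocol, with longer reads and in larger number than deposited here, so the deposited pair may be other libraries than those the study describes. The study refers to both tissues as taken from the same animals, but the sources used here do not say whether mice were pooled in a library or whether the protocols shared mice.

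With a single library for each tissue in a protocol, the spread between replicates is unknown and no test between tissues was run. The 95% intervals given for ratios are exact (Clopper-Pearson) and cover the counting error of reads alone. Reads copied by amplification do not count separate molecules, so the intervals can be too narrow for the counting of molecules. In whole tissue, fewer cells of a type and less RNA per cell cannot be told apart.

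Uniquely placed reads numbered 22484041 (small intestine) and 24798934 (colon) after cDNA fragmentation but only 2035386 and 3478387 after RNA fragmentation, so the RNA fragmented values are less precise. Among 14274 genes with at least 20 reads over both tissues, the median ratio of colon to small intestine was 1.32-fold by cDNA fragmentation, and among 11993 such genes it was also 1.32-fold by RNA fragmentation. A gene of the set thus has to be read against this shift and not against 1. Tissue markers followed the labels. All 8 enterocyte markers (Fabp2 and Sis among them) were higher in small intestine and all 5 colonocyte markers (Car1 and Slc26a3 among them) were higher in colon by the 3-fold rule in both protocols, with Car1 and Atp12a at 0 in the cDNA fragmented small intestine library.

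Promoter sequences are shown because SREBP2 binds sterol regulatory elements with the help of the CCAAT-binding factor NF-Y. The set itself was chosen by symbol and not by its promoters. RefSeq promoters (GRCm38.p6, 250 bases before to 50 bases after the start) were found for 6 of the 9 genes, as 8 promoters with 3 of them for Dhcr7. No promoter sequence was used for Fdps, Fdft1 and Sqle. The sterol regulatory element was searched as TCACNCCAC on both strands. It stood in 408 of 32851 promoters (1.24%), and among the genes of the set in that of Hmgcs1 alone. The match, in capitals, begins 137 bases before the Hmgcs1 start, and the window is chr13:119690204-119690232 on the plus strand.
Hmgcs1: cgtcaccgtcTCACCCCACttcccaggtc

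The CCAAT box was searched as CCAAT on both strands and stood in 37.4% of all promoters. All 6 genes with a promoter had at least 1 match, in 6 of the 8 promoters. The windows below are written in the direction of the gene and each shows a match in the reversed reading ATTGG, in capitals. They lie at chr13:119690296-119690320 for Hmgcs1, chr8:122443468-122443492 (minus strand) for Mvd, chr13:8885551-8885575 for Idi1, chr10:76531533-76531557 for Lss, chr7:143830155-143830179 for Dhcr7 and chr15:82147124-82147148 for Srebf2. The matches begin 45, 60, 45, 62, 49 and 135 bases before the start in the same order. Only 1 match per gene is shown, chosen in the reversed reading. Other reversed matches begin 237 and 176 bases before and 10 bases after the Hmgcs1 start, and 14 bases before the Idi1 start. Forward matches begin 27 bases before the Mvd start and 85 bases before the Dhcr7 start.
Hmgcs1: cccgcctctcATTGGctgaaagcgg
Mvd: cctgtcgcctATTGGacagcacggg
Idi1: cctccagctgATTGGcgagcccggg
Lss: tgatgctctgATTGGccgagctcgc
Dhcr7: tccacttccgATTGGtcgtctgtga
Srebf2: tcgcgcgccgATTGGctaatgcaag

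The GC box GGGCGG, the core of SP1 sites, stood in 35.7% of all promoters and in 7 of the 8 promoters of the set, with at least 1 match for each of the 6 genes. A match is a description of the letters, and no match says only that these letters are not in this window. The deposited reads do not cover promoters, so no measurement of factor binding stands beside these sequences.

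Hmgcs1 encodes the cytosolic HMG-CoA synthase, an early step of the pathway. Its symbol is not in the mm9 gene annotation used here, and no exon block on the matched chromosomes belongs to it. The 300 bases of its promoter were found whole in 2 unplaced pieces of chromosome 13 in mm9, once in each, and in no placed chromosome. In the first piece, 11 exon blocks (3283 bases) lie within the gene's span downstream of that promoter, the nearest at 111 bases from the start, and all 11 have an identical copy in the second piece. Exons of this unplaced sequence were not among the references matched. The junctions of the whole unplaced sequence, not of Hmgcs1 alone, held 1 read (small intestine) and 2 reads (colon) after cDNA fragmentation. They held none after RNA fragmentation. The missing value is therefore one of the reference and says nothing of the level of Hmgcs1 in either tissue.

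In the mevalonate steps, Mvd (mevalonate diphosphate decarboxylase, which makes isopentenyl diphosphate; chr8:124957496-124967322, minus strand, 11 blocks, 1864 exonic bases in mm9) had the lowest level of the enzymes in both cDNA fragmented libraries. It had 173 reads (4.13 RPKM) in small intestine and 620 reads (13.4 RPKM) in colon by cDNA fragmentation. By RNA fragmentation it had 26 reads (6.85 RPKM) and 114 reads (17.6 RPKM). Colon was high in both protocols, and the ratio of colon to small intestine was 3.25 (interval 2.74-3.87) by cDNA and 2.57 (1.66-4.09) by RNA fragmentation. The cDNA ratio lay above that of 89.2% of all genes tested.

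Idi1 (isopentenyl diphosphate isomerase; chr13:8885220-8891616, plus strand, 5 blocks, 2473 exonic bases) was nearly level between tissues. It had 3290 reads (59.2 RPKM) in small intestine and 4753 reads (77.5 RPKM) in colon by cDNA fragmentation, and 313 reads (62.2 RPKM) and 710 reads (82.5 RPKM) by RNA fragmentation. The ratios of 1.31 (1.25-1.37) and 1.33 (1.16-1.52) lay at the median of all genes, from which they differed by -0.0081 and 0.012 on the log2 scale, so that relative to the other genes Idi1 was not higher in colon. The last block holds 83.0% of its exonic bases and had ratios of 1.32 and 1.30 in the protocols, while blocks 2 and 3, toward the 5' end, had cDNA ratios of 0.816 (0.616-1.08) and 0.993 (0.744-1.33).

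Fdps (farnesyl diphosphate synthase, which supplies the sterol branch as well as prenylation; chr3:88897510-88905867, minus strand, 10 blocks, 1223 exonic bases) was the most abundant of the genes by cDNA fragmentation. It had 3445 reads (125 RPKM) in small intestine and 10136 reads (334 RPKM) in colon. In the RNA fragmented libraries it had 118 reads (47.4 RPKM) and 350 reads (82.3 RPKM). The cDNA ratio was 2.67 (2.57-2.77) and the RNA ratio 1.74 (1.40-2.16), both above 1 and with intervals that do not meet. A single start point held 20.3% and 21.7% of the Fdps reads in the RNA fragmented libraries, and no start point of any of the genes held more than 2.7% in a cDNA fragmented library.

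Among the squalene and sterol steps, Fdft1 (squalene synthase, the first step committed to sterols; chr14:63769987-63796630 for its counted blocks, minus strand, 7 blocks, 1044 exonic bases) was higher in colon by both protocols. It had 1801 reads (76.7 RPKM) in small intestine and 4960 reads (192 RPKM) in colon by cDNA fragmentation. By RNA fragmentation the values were 96 reads (45.2 RPKM) and 482 reads (133 RPKM). The ratios were 2.50 (2.37-2.64) and 2.94 (2.36-3.70). The last exon of Fdft1 (chr14:63763990-63765805, 1816 bases) overlaps the end of Ctsb on the other strand and its block was counted for Ctsb. The RNA fragmented reads keep their strand, and on the Fdft1 strand of that exon 65 reads came from small intestine and 324 from colon, a ratio of 2.92 (2.23-3.87). With that exon included, the Fdft1 level by RNA fragmentation was 27.7 RPKM in small intestine and 81.0 RPKM in colon, in place of 45.2 and 133 RPKM.

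Sqle (squalene epoxidase, the first oxygenation; chr15:59146647-59162748, plus strand, 11 blocks, 2748 exonic bases) gave unlike ratios by protocol. It had 1216 reads (19.7 RPKM) in small intestine and 1824 reads (26.8 RPKM) in colon by cDNA fragmentation, close to the general shift. By RNA fragmentation it had 179 reads (32.0 RPKM) and 667 reads (69.8 RPKM). The ratios were 1.36 (1.26-1.46) and 2.18 (1.85-2.59), and their intervals do not meet. Restricted to the last 1000 exonic bases, the log2 ratio by RNA fragmentation was 0.48 in place of 1.12. By cDNA fragmentation it was 0.42 in place of 0.44, so the protocols were close on those bases.

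Lss (lanosterol synthase, which closes the rings; chr10:75994372-76016679, plus strand, 22 blocks, 3102 exonic bases, of which 188 are shared with 4930483K19Rik) was nearly double in colon by cDNA fragmentation, with 904 reads (12.96 RPKM) against 1988 reads (25.8 RPKM). By RNA fragmentation it had 37 reads (5.86 RPKM) and 80 reads (7.41 RPKM), the lowest level of the 8 genes there. The cDNA ratio was 1.99 (1.84-2.16). The RNA ratio of 1.27 (0.847-1.92) has an interval that includes both 1 and the cDNA ratio's lower bound, so at this depth a difference between tissues was not detectable.

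Dhcr7 (7-dehydrocholesterol reductase, a last step to cholesterol; chr7:151009072-151034315, plus strand, 9 blocks, 2816 exonic bases) had 912 reads (14.4 RPKM) in small intestine and 1928 reads (27.6 RPKM) in colon by cDNA fragmentation. By RNA fragmentation it had 97 reads (16.9 RPKM) and 529 reads (54.0 RPKM). Colon was high in both, with ratios of 1.92 (1.77-2.08) and 3.19 (2.57-4.005), which do not meet. Block 6 had 2 small intestine reads and 61 colon reads by RNA fragmentation, but 105 and 175 by cDNA fragmentation, so the blocks of Dhcr7 spread widely in the RNA fragmented libraries only.

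The regulator Srebf2 (chr15:81977699-82035390, plus strand, 19 blocks, 4570 exonic bases) was scarce by cDNA fragmentation, with 111 reads (1.08 RPKM) in small intestine and 324 reads (2.86 RPKM) in colon. By RNA fragmentation it had 310 reads (33.3 RPKM) and 675 reads (42.5 RPKM) in libraries with far fewer reads. The ratio of colon to small intestine was 2.65 (2.13-3.31) by cDNA and 1.27 (1.11-1.46) by RNA fragmentation. Both are above 1, but the RNA ratio lies below the median of all genes, which its interval includes, and the cDNA ratio above that of 84.4% of them.

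**Figure D1:**
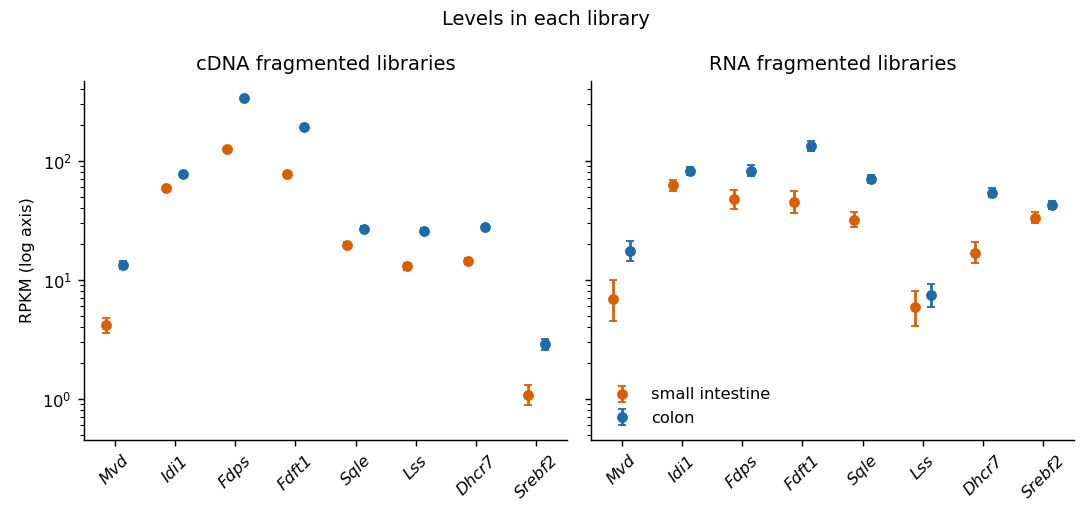
RPKM (log axis) of the 8 counted genes in each library, with cDNA fragmented libraries on the left and RNA fragmented libraries on the right. Points are single libraries, orange for small intestine and blue for colon, and bars are 95% counting intervals. The blue point is the higher of each pair as scaled here (median-of-ratios scaling turns Idi1 on the left and Lss on the right), the Lss bars overlap by RNA fragmentation, and Srebf2 stands near 1 to 3 RPKM on the left and at 33.3 and 42.5 RPKM on the right.

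All 8 genes had more RPKM in colon by cDNA fragmentation, where 66.3% of all genes tested did so, and all 8 by RNA fragmentation, where 64.8% did. Among the 11811 genes tested in both protocols, 50.4% were higher in colon in both. The counting interval lay above 1 for all 8 genes by cDNA fragmentation (background 53.8%) and for 7 by RNA fragmentation (background 43.4%), Lss being the exception. The median of the 8 ratios was 2.23-fold by cDNA and 1.95-fold by RNA fragmentation, beside 1.32-fold for all genes in each protocol. Above that general median lay 7 of the 8 genes by cDNA fragmentation, all but Idi1, and 6 by RNA fragmentation, all but Lss and Srebf2. Of those counted above, Sqle by cDNA (1.26-1.46) and Idi1 by RNA fragmentation (1.16-1.52) had intervals that include the median. So did those counted below, Idi1 by cDNA (1.25-1.37) and Lss (0.847-1.92) and Srebf2 (1.11-1.46) by RNA fragmentation. Under median-of-ratios scaling 7 of 8 genes were higher in colon in each protocol. No share of all genes was computed for that scaling, which sets their middle level, so the shares above are not its background.

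Most ratios were smaller where each start point was counted once in place of all its reads, the exceptions being Lss by RNA fragmentation (log2 ratio of 0.48 in place of 0.34) and Srebf2 by cDNA fragmentation (1.41 in place of 1.40). Idi1 by cDNA fragmentation became level, at 0.0011 in place of 0.39. The log2 ratios of Fdps and Fdft1 by cDNA fragmentation were then 0.23 and 0.46 in place of 1.42 and 1.32, with start points on 52.1% and 64.1% of all positions of Fdps (both strands) in small intestine and colon. By RNA fragmentation those of Mvd, Fdft1, Sqle and Dhcr7 were 0.61, 0.90, 0.42 and 0.94 in place of 1.36, 1.55, 1.12 and 1.67.

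The study's rule for enhanced expression, which it set on FPKM of transcripts, was applied here to the RPKM of genes, so that the level in one tissue had to be at least 3 times that in the other after 1 RPKM had been added to the latter. By cDNA fragmentation none of the 8 genes passed it toward colon (background 3.73%) or toward small intestine (3.15%). By RNA fragmentation Dhcr7 passed it toward colon (background 7.94%), with a penalised ratio of 3.01 that sits just on the threshold and was lost with median-of-ratios scaling, with 1 mismatch or with start points, and none passed it toward small intestine (4.42%). At a 2-fold rule Mvd, Fdps and Fdft1 passed by cDNA fragmentation (background 9.35%), and Mvd, Fdft1, Sqle and Dhcr7 by RNA fragmentation (18.5%), while none passed it toward small intestine (background 5.19% and 8.25%). Mvd and Fdft1 were thus past 2-fold by both protocols, a share not computed for all genes. A log2 ratio of 1 is 2-fold. With start points the log2 ratios by cDNA and RNA fragmentation were 1.49 and 0.61 for Mvd and 0.46 and 0.90 for Fdft1. Under median-of-ratios scaling they were 1.30 and 1.02 for Mvd and 0.92 and 1.21 for Fdft1. Fdft1 was thus not past 2-fold in both protocols under either setting, nor was Mvd with start points.

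**Figure D2:**
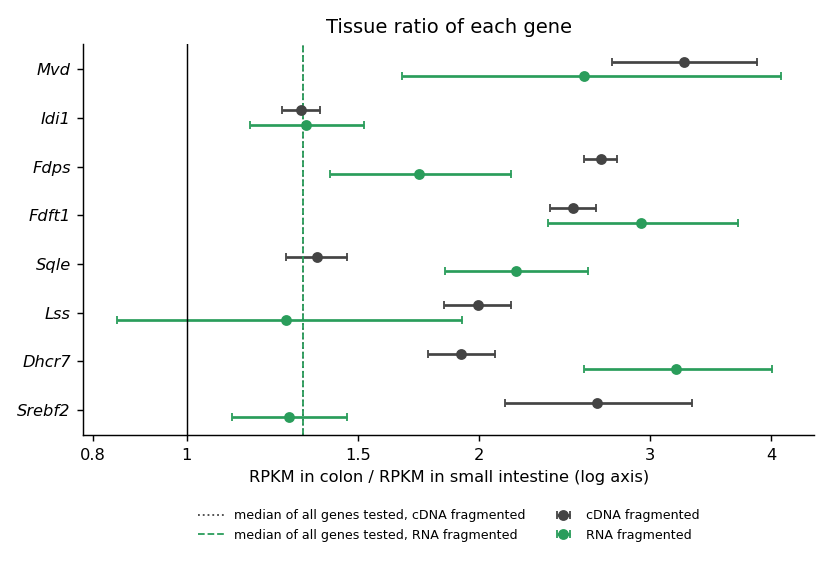
Ratio of RPKM in colon to RPKM in small intestine (log axis) for each gene, grey for cDNA fragmented and green for RNA fragmented libraries, with 95% counting intervals. The solid line marks 1, and the medians of all genes tested in the protocols (1.32-fold each) fall on the same broken line. Idi1 sits on that line in both protocols, and Fdps, Sqle, Dhcr7 and Srebf2 have intervals that do not meet; median-of-ratios scaling puts Idi1 (cDNA) and Lss (RNA) just below 1.

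The tissue ratios of 4 genes (Fdps, Sqle, Dhcr7 and Srebf2) had intervals that lie apart between protocols, beside 42.3% of all 11811 genes tested in both. Fdps and Srebf2 had the higher ratio by cDNA fragmentation, and Sqle and Dhcr7 by RNA fragmentation. With each start point counted once, the log2 ratios by cDNA and RNA fragmentation were 0.34 and 0.42 for Sqle and 0.76 and 0.94 for Dhcr7. They were 0.23 and 0.62 for Fdps and 1.41 and 0.23 for Srebf2. The difference between protocols was thus smaller there for Sqle and Dhcr7, turned round for Fdps and remained for Srebf2. Mvd, Idi1, Fdft1 and Lss had intervals that meet.

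The order of the enzymes by RPKM was partly shared between libraries. Fdps, Fdft1 and Idi1 had the 3 highest values in each library as counted, without the last exon of Fdft1. With that exon, Fdft1 fell below Sqle in the RNA fragmented small intestine library and came level with Idi1 and Fdps in the RNA fragmented colon library. Mvd and Lss were the lowest pair in each. By cDNA fragmentation the order was Fdps, Fdft1 and Idi1 in both tissues with intervals that do not meet, but with all reads of both strands on its last exon Fdft1 had 49.3 RPKM in small intestine, below Idi1, and 124 RPKM in colon. By RNA fragmentation neighbours in the order had overlapping intervals among Idi1, Fdps, Fdft1 and Sqle in small intestine and among Idi1, Fdps and Sqle in colon, and Mvd and Lss overlapped in small intestine. By cDNA fragmentation Dhcr7 and Lss overlapped in small intestine. Sqle, Dhcr7 and Lss in the cDNA fragmented colon library, at 25.8 to 27.6 RPKM, could not be ordered beyond counting error either. The 7 counted enzymes summed to 312 RPKM in small intestine and 697 RPKM in colon by cDNA fragmentation (2.23-fold), and to 216 and 446 RPKM by RNA fragmentation (2.06-fold). Fdps alone made up 40.1% and 48.0% of the cDNA sums.

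Within the genes, the tissue ratio was followed block by block. By cDNA fragmentation, 68 of the 94 blocks of the 8 genes had at least 20 reads over both tissues, of which 66 were higher in colon and 53 had an interval above 1, with none below 1. By RNA fragmentation 48 blocks had that many reads, of which 44 were higher in colon, 23 had an interval above 1 and 1 had an interval below 1. The share over all exon blocks was not computed, and of all genes tested 66.3% by cDNA and 64.8% by RNA fragmentation were higher in colon. Blocks of the same gene in the same libraries are not replicates. The blocks of Fdps by cDNA fragmentation lay in a narrow range from 2.13 to 3.17 over 9 blocks, and those of Fdft1 from 2.03 to 3.10 over 7 blocks. The blocks of Srebf2 by RNA fragmentation ranged from 0.611 to 11.7 over 16 blocks, of which 12 were higher in colon. All RNA fragmented blocks not higher in colon were blocks of Srebf2. Its block 7, the one with an interval below 1, had 45 small intestine reads and 47 colon reads, a ratio of 0.611 (0.397-0.941). Its last block had 104 and 215 reads, a ratio of 1.21 (0.953-1.54).

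**Figure D3:**
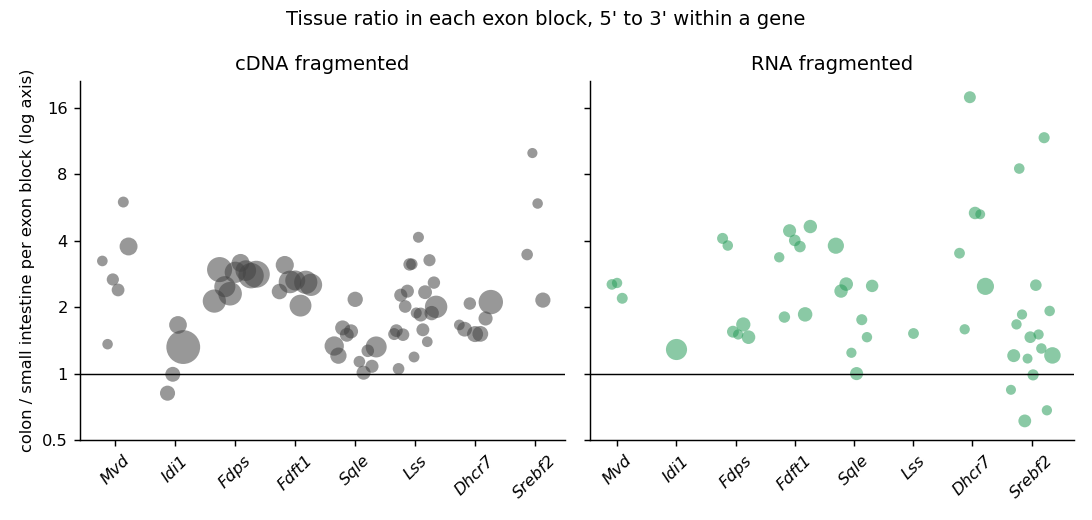
Ratio of colon to small intestine (log axis) in each exon block with at least 20 reads over both tissues of a protocol, in 5' to 3' order within a gene. Point area grows with the number of reads. Most blocks lie above the line at 1 (66 of 68 by cDNA and 44 of 48 by RNA fragmentation), and the share over all exon blocks was not computed. The cDNA blocks of Fdps and Fdft1 lie close together, and the RNA blocks of Dhcr7 and Srebf2 are spread.

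Read strand differed between protocols. In the RNA fragmented libraries 98.8% to 100% of the reads on each of the 8 genes lay on the gene's own strand, against 41.7% to 63.1% in the cDNA fragmented libraries, which do not keep strand. Reads of an antisense transcript therefore could not be told apart by cDNA fragmentation.

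The level itself depended on the protocol most for Srebf2. Its RPKM by RNA fragmentation was 30.9 times (24.8-38.7) that by cDNA fragmentation in small intestine and 14.9 times (12.99-17.0) in colon, higher than for 98.4% and 97.0% of all genes, whose medians were 1.30 and 1.45. Fdps went the other way, at 0.378 (0.312-0.455) and 0.246 (0.221-0.274). Lss had 0.452 (0.316-0.628) and 0.287 (0.227-0.359). The sum of the 7 enzymes was accordingly 289 and 244 times the Srebf2 level by cDNA fragmentation but 6.49 and 10.5 times by RNA fragmentation, so a ratio of enzymes to regulator could not be given from one protocol alone.

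Across all genes the ratio of RNA to cDNA fragmentation rose with exonic length, from a median of 0.442 in the shortest of 5 length classes of equal size to 2.76 in the longest in small intestine and from 0.488 to 2.85 in colon. It was also highest in the class with most G and C, of 5 such classes, at 3.03 in small intestine and 2.33 in colon. Srebf2, with 4570 exonic bases and 57.9% G and C, belongs to the class next to the longest and to the top class by G and C, and its ratios are above the upper quartile of both. Mvd, with 59.1% G and C, had ratios of only 1.66 and 1.31, and Fdps belongs to the shortest class. The part of length and base composition in the levels of single genes was not tested.

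**Figure D4:**
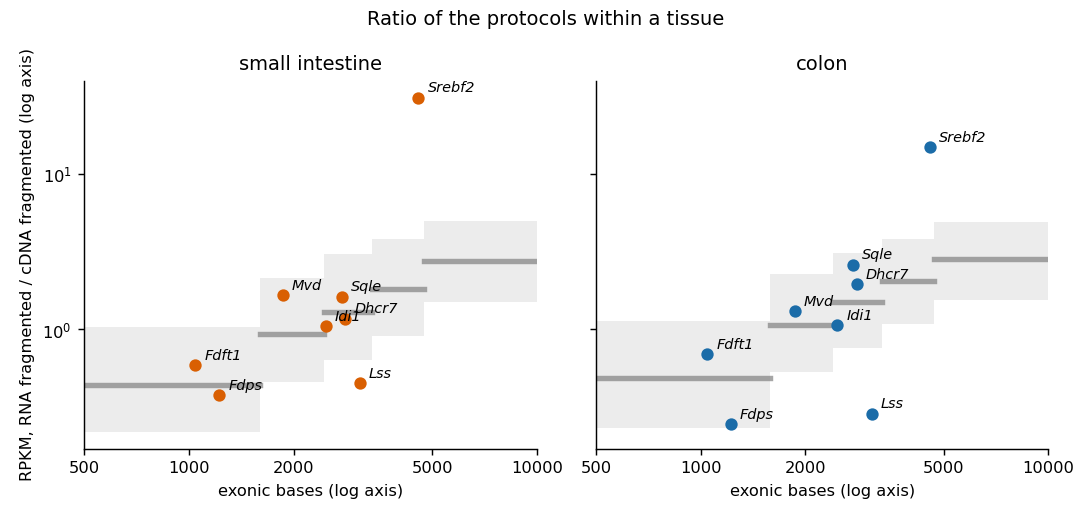
RPKM by RNA fragmentation divided by RPKM by cDNA fragmentation (log axis) against exonic bases (log axis) for the 8 genes, small intestine on the left and colon on the right. Grey bars and bands are the median and quartiles of all genes in 5 length classes, drawn from 500 to 10000 bases. Srebf2 lies far above its class, at 30.9 and 14.9, and Lss lies below the band of its class in both tissues.

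Other genes of the pathway were taken from lists. The 13 further cholesterol synthesis genes had a lower median ratio than the set (log2 medians of 1.16 and 0.96), a difference that was not tested. Their log2 ratios (colon to small intestine) had a median of 0.51 by cDNA and 0.17 by RNA fragmentation, beside 0.40 for all genes in each, and 9 of 13 were higher in colon in each protocol, near the 66.3% and 64.8% of all genes. None passed the 3-fold rule toward either tissue by cDNA fragmentation, and by RNA fragmentation Sc5d passed toward small intestine. Sc4mol, a sterol methyl oxidase and the most read gene of this list, had ratios of 1.43 (1.38-1.48) and 1.90 (1.66-2.18). Sc5d, which precedes Dhcr7 in the pathway, had ratios of 0.603 (0.583-0.625) and 0.279 (0.197-0.392), lower in colon in both. Named after their values had been seen, Mvk, Pmvk, Tm7sf2 and Cyp51 had cDNA ratios of 4.13, 2.42, 2.34 and 2.26, above the median of the set, and RNA ratios of 1.25, 1.13, 1.17 and 1.16.

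Of the 10 genes of SREBP processing and control, 7 by cDNA and 8 by RNA fragmentation were higher in colon, with median log2 ratios of 0.81 and 0.91, and these counts lie near the 66.3% and 64.8% of all genes that were higher in colon. None passed the 3-fold rule toward small intestine in either protocol, and toward colon none passed by cDNA fragmentation and 1 by RNA fragmentation, Mylip, a ubiquitin ligase, at 3.97 (2.66-6.14), a call that was lost under median-of-ratios scaling. Insig1, which holds the SREBP complex in the endoplasmic reticulum, had 1.40 (1.32-1.49) and 2.12 (1.88-2.39). Stard4, a sterol carrier, was lower in colon, at 0.755 (0.707-0.807) and 0.892 (0.809-0.985).

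Scap, Srebf1 and Fasn were looked at beside Srebf2 after their values had been seen. In small intestine Scap, the escort protein of SREBP, went from 0.851 RPKM by cDNA to 12.2 RPKM by RNA fragmentation. Srebf1, which encodes the sister factor, went from 0.509 to 28.1 RPKM. Fasn, the fatty acid synthase, went from 0.631 to 24.0 RPKM, so Srebf2 was not alone in being scarce by cDNA fragmentation.

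The 8 fatty acid synthesis genes, which are driven mostly by the sister factor SREBP1, had median log2 ratios of 1.18 and 0.95, with 6 of 8 higher in colon in each protocol (66.3% and 64.8% of all genes). Toward colon 1 passed the 3-fold rule by cDNA fragmentation (Scd2) and 3 by RNA fragmentation (Acly, Acss2 and Scd2), beside 3.73% and 7.94% of all genes, and none toward small intestine. The call of Scd2 by cDNA fragmentation was lost under median-of-ratios scaling. Scd2, a desaturase, had ratios of 4.15 (3.95-4.35) and 4.23 (3.76-4.77). Acly, which makes the cytosolic acetyl-CoA from which sterols and fatty acids are built, had 2.53 (2.42-2.65) and 6.63 (5.72-7.74).

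Most genes of cholesterol absorption, storage and efflux were higher in small intestine. Of 8 genes, 5 by cDNA and 4 by RNA fragmentation passed the 3-fold rule toward small intestine (3.15% and 4.42% of all genes) and none toward colon (3.73% and 7.94%), and the median log2 ratios were -3.98 and -2.94. Npc1l1, the uptake transporter, had 111 RPKM in small intestine and 0.194 RPKM in colon by cDNA fragmentation and 191 and 1.19 RPKM by RNA fragmentation. The sterol exporters Abcg5 and Abcg8 were higher in small intestine 48.9-fold and 63.7-fold by cDNA and 25.6-fold and 71.6-fold by RNA fragmentation. Soat2, which esterifies absorbed cholesterol, was 61.5-fold and 44.2-fold higher there. Nr1h3 was the additional gene by cDNA fragmentation. The other side held 2 of 8 genes in each protocol, Soat1 with ratios of 1.81 and 2.70 and Nr1h2 with 1.04 and 1.59. The synthesis enzymes, at 1.27-fold to 3.25-fold toward colon, thus differed between tissues far less than Npc1l1, Abcg5, Abcg8 and Soat2. Abca1, an efflux transporter of the same list, was higher in small intestine by 5.11-fold (cDNA) and 2.30-fold (RNA), the latter within the range of the enzymes.

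**Figure D5:**
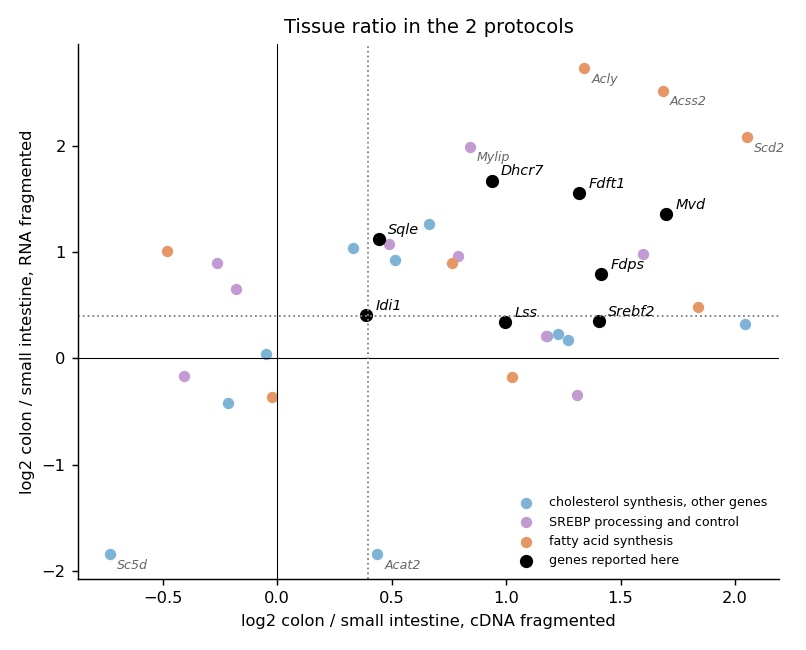
Log2 ratio of colon to small intestine by cDNA fragmentation (horizontal) and RNA fragmentation (vertical) for the 8 genes (black) and for genes of 3 pathway lists (coloured), 1 point per gene. Dotted lines mark the median of all genes tested, 0.40 on each axis. The black points lie at the upper right of 0 as scaled here (median-of-ratios scaling puts Idi1 by cDNA and Lss by RNA fragmentation just below 0), and Sc5d lies at the lower left.

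Markers of some cell types were also higher in colon. Summed RPKM of the 6 smooth muscle markers was 308 in small intestine and 1280 in colon by cDNA fragmentation and 241 and 2445 by RNA fragmentation, with 5 of 6 past the 3-fold rule toward colon in each. The 5 goblet cell markers found of 6 summed to 10493 and 28949 RPKM and to 2583 and 8654 RPKM, with 1 past the rule by cDNA and 2 by RNA fragmentation and with Fcgbp lower in colon by RNA fragmentation, at 0.618. The 5 adipocyte markers summed to 51.7 and 183 RPKM and to 26.4 and 147 RPKM, with 2 and 1 past the rule, and Cidec was at 0.861 by cDNA fragmentation. The 7 proliferation markers summed to 215 and 191 RPKM and to 163 and 139 RPKM, with none past the 3-fold rule and with 3 of 7 by cDNA and 4 of 7 by RNA fragmentation higher in colon. By RNA fragmentation they went from Top2a at 0.342 to Ccnb1 at 2.06. The part of these cell types in the ratios of the 8 genes was not tested.

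Markers of organs next to the intestine were measured as well, since the liver is a main site of cholesterol synthesis. The 5 hepatocyte markers summed to 5.30 and 69.7 RPKM in small intestine and colon by cDNA fragmentation and to 2.02 and 17.4 RPKM by RNA fragmentation, with Fga at 0 in both cDNA fragmented libraries and Serpina1a and Apoh at 0 in both RNA fragmented libraries. Ttr alone made up 4.27 and 68.9 RPKM of the cDNA sums and 1.87 and 16.96 RPKM of the RNA sums, Alb stayed at or below 0.422 RPKM, and Apoh by cDNA fragmentation was lower in colon, at 0.340. The 6 pancreatic acinar markers summed to 18.8 and 749 RPKM by cDNA and to 2190 and 297 RPKM by RNA fragmentation, so their sum was higher in colon in the first and in small intestine in the second. The sums of T and B cell markers were 81.7, 38.2, 23.9 and 27.5 RPKM, and those of enteric neuron and glia markers 8.71, 19.5, 4.93 and 25.8 RPKM, in the order of the libraries above. Their part in the result was not tested.

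The genes whose profile over the 4 libraries was nearest to the median profile of the set were sought among 8255 genes with at least 20 reads in each library, by Euclidean distance of log2(RPKM + 1) after centring on the mean. They were Slc22a18 (distance 0.0565), Cald1 (0.0860) and Psmd5 (0.0991). Of the genes of the set, Dhcr7 (0.524) and Mvd (0.542) were the closest to that median profile and Srebf2 (3.61) the farthest. Eligible genes nearer to it numbered 302 for Dhcr7, 333 for Mvd and 7972 for Srebf2. For the other counted genes they numbered from 455 (Idi1) to 5643 (Fdps), so the profile was not particular to the set. The distances are a description over 4 libraries.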

How the data were processed

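The authors deposited, for each library, the placements of single SOLiD reads (35 colors, at most 3 color mismatches, uniquely placed only) on merged RefSeq exons and exon-exon junctions of mm9, with reports of read numbers and tables of exon and junction positions; these deposited values are positions and read placements of no normalized unit, matched with the corona pipeline per the file headers.

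Each of 199684 exon blocks was given to the GENCODE M1 gene (mm9) with most exonic overlap, coding genes first; 533 blocks on other sequences were not used. Reads were counted on both strands at their start with a tolerance of 3 bases, and levels were scaled to RPKM by the uniquely placed reads of a library. Processed pseudogenes outside RefSeq exons were not in the reference, so their reads may be counted on the parent gene. Genes with at least 20 reads over both tissues of a protocol were compared. The fold rule was the study's, applied to RPKM in place of FPKM. Intervals were exact conditional binomial at 95%. The fold rule, the interval and the median-of-ratios scaling were tested on simulated gene counts, and the assignment of reads to genes was not. With 1 library per tissue in a protocol no test was run, and a fit over both protocols with protocol as a block was not run either.

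Named were the 9 genes, the genes of each list past the rule in both protocols or otherwise the 3 with most reads, and the 3 nearest profiles. Some genes of the lists enter the list counts but are not reported here singly. Others (Sc5d as a call, Mvk, Pmvk, Tm7sf2, Cyp51, Soat1, Nr1h2, Abca1, Mylip, Acss2, Nr1h3, Scap, Srebf1, Fasn and the genes of opposite direction in the closing section) were named after their values had been seen. Genes and lists were chosen with earlier results of these data known. Alternatives were the mismatch limit, start points, scaling, junction reads, strand, the 3' 1000 bases, thinning, the penalty, the fold and the filter; 2 more, the last exon of Fdft1 and leaving out the highest start point, were chosen after seeing the data. Python 3.11.15, pandas 2.3.3, numpy 2.4.6 and scipy 1.17.1 were used.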

Additional observations from a re-analysis of the deposited data

Results flagged for a closer look

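Of 36 genes looked at in the 4 pathway lists, 4 had counting intervals on opposite sides of 1 in the protocols, and in each case the difference between protocols was not tested. The share of all genes with intervals on opposite sides of 1 was not computed. Intervals that lie apart between protocols, a wider condition, were found for 42.3% of all 11811 genes tested in both. The values are the log2 ratio of colon to small intestine by RNA fragmentation minus that by cDNA fragmentation. Acat2, an acetyl-CoA thiolase, had a difference of -2.28, with ratios of 1.35 by cDNA and 0.279 by RNA fragmentation, the latter on 21 and 10 reads. Insig2 had 0.83, with ratios of 0.884 and 1.58. Mbtps2, a protease that cleaves SREBP, had 1.17, with ratios of 0.833 and 1.87. Scd1, a desaturase, had 1.49, with ratios of 0.717 and 2.01.

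The summed RPKM of the pancreatic acinar markers was 39.8-fold higher in colon by cDNA fragmentation and 7.38-fold higher in small intestine by RNA fragmentation, a difference of -8.20 on the log2 scale that was not tested either. Cela1 made up most of the colon sums, with 18.3 and 552 RPKM in small intestine and colon by cDNA and 503 and 293 RPKM by RNA fragmentation, where it was 1.72-fold higher in small intestine, while Cpa1, Pnlip, Ctrb1 and Cel had 599 to 1611 reads there and 2 to 10 reads in colon. Amy2a5 was at 0 in all 4 libraries.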

How the results depend on the processing

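Of 121 recalculated gene ratios, 89 moved by less than their counting interval, 30 moved further and 2 reversed. All stayed within the interval without junction reads (16), with thinning (16), without the highest start point (16) and on the sense strand (8). With start points 9 moved further and 7 did not. Under median-of-ratios scaling 13 moved further, 1 did not and 2 reversed (Idi1 by cDNA fragmentation to -0.013 and Lss by RNA fragmentation to -0.0030 on the log2 scale). There 7 of 8 genes remained higher in colon in each protocol, and the share of all genes was not computed for that scaling. The median log2 ratio, 1.16 by cDNA and 0.96 by RNA fragmentation, became 0.61 and 0.55 with start points and 0.75 and 0.62 with median-of-ratios scaling, which moves the centre of all genes by 0.40 and 0.34, and 0.65 by RNA fragmentation on the last 1000 bases. The count of the 8 genes past the rule toward colon went from 0 to 1 with a penalty of 0.1 RPKM and to 3 at 2-fold by cDNA fragmentation, and from 1 to 4 at 2-fold and to 0 with median-of-ratios scaling, 1 mismatch or start points by RNA fragmentation. The counts toward colon of further cholesterol genes by cDNA fragmentation went from 0 to 1 (penalty of 0.1 RPKM) and 3 (2-fold), and by RNA fragmentation from 0 to 1 (2-fold), with 1 to 2 toward small intestine under both. Fatty acid genes by cDNA fragmentation went from 1 to 3 under both and to 0 with median-of-ratios scaling, SREBP genes by RNA fragmentation from 1 to 0 with that scaling and to 2 at 2-fold, and absorption genes by RNA fragmentation from 0 to 1 toward colon at 2-fold. That scaling changed the calls over all genes from 532 higher in colon and 450 in small intestine (54.2% in colon) to 352 and 586 (37.5%) by cDNA, and from 952 and 530 (64.2%) to 609 and 726 (45.6%) by RNA fragmentation. The cause of these moves was not tested. No paired fit was run: within a protocol each tissue holds 1 library, and a fit over both protocols with protocol as a block, which would leave 1 residual degree of freedom, was not made. Depth limits Lss and Mvd most in the RNA fragmented small intestine library, at 37 and 26 reads.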
